A study of Mus musculus with 6 samples.

Results

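The genes described here are the expressed solute carriers of early T cell progenitors. They were chosen by symbol and level from the deposited table: every gene whose symbol has the form Slc, a number, the letter a and a number, and whose mean normalised count over the control and knockout groups was at least 10. Of 336 genes with such a symbol among 22609 rows, 203 reached that level, and they belong to 43 Slc families. The other 133 stayed under it, 71 of them at 0 in both groups, and 0 of the 62 that the authors tested were called, with 1 at an unadjusted p under 0.05 in their table. The mean over both groups served only to choose the members, but 11 members reached it with one group under 10, and 2 of these, Slc16a5 and Slc5a9, were called. Just outside the minimum lay Slc7a2 at 9.69, Slc9a2 at 9.75 and Slc34a3 at 9.89. Just inside lay Slc36a3 at 10.2, Slc12a5 at 10.3 and Slc5a9 at 10.4. The symbols of 4 members (Slc7a6os, Slc9a3r1, Slc9a3r2 and Slc4a1ap) match the pattern although their products are not carriers.

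The cells were early T cell progenitors (ETPs), the most immature thymocytes, taken from C57BL/6 fetal thymus by the gate CD4-CD8-Lin-CD44+CD25-ckit+. The control group held 3 wild-type libraries. The double-knockout (dKO) group held 3 libraries of the genotype E2Afl/fl HEBfl/fl IL7RCre, in which Cre from the Il7r locus deletes both conditional alleles in cells that express or have expressed this receptor gene, and these cells were also sorted as YFP+. Genotype and gate thus differed together, and their effects cannot be told apart. No label gives the age of the fetuses, or says whether a library came from 1 fetus or from a pool. E2A (gene Tcf3) and HEB (gene Tcf12) are basic helix-loop-helix transcription factors, called E proteins, that bind the DNA motif CANNTG and are needed for T cell development.

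Solute carriers are membrane proteins that move nutrients, ions and metabolites across the plasma membrane and the membranes of organelles. Amino acids enter through members of Slc1, Slc7 and Slc38, glucose through Slc2, lactate and pyruvate cross through Slc16, the inner mitochondrial membrane is served by Slc25, and zinc is moved out of the cytosol by Slc30 and into it by Slc39. Proliferating lymphocytes are known to raise uptake of glucose and of amino acids, and cells with active glycolysis export lactate.

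Promoters of 155 of the 203 members matched the RefSeq promoter table of build GRCm38.p6, which gives 208 windows for them, each from 250 bases before a start to 50 bases after it. The windows of 4 called members are printed 5′ to 3′ on the strand of the gene. They were chosen by hand, and other members changed more. Both strands were searched. Capitals mark the motif CAGCTG, the motif CAGGTG with its reverse complement CACCTG, and the motif CACGTG, which are all forms of CANNTG and do not overlap here. Slc16a3 and Slc16a1 encode the lactate carriers whose means moved in opposite directions, and Slc38a4 rose and Slc5a11 fell, each with a CAGCTG in the window. These windows lie at chr11:120948817-120949116 (plus strand) for Slc16a3, chr3:104638414-104638713 (plus strand) for Slc16a1, chr15:97055907-97056206 (minus strand, the most upstream of 3 starts) for Slc38a4 and chr7:123214616-123214915 (plus strand) for Slc5a11.
Slc16a3: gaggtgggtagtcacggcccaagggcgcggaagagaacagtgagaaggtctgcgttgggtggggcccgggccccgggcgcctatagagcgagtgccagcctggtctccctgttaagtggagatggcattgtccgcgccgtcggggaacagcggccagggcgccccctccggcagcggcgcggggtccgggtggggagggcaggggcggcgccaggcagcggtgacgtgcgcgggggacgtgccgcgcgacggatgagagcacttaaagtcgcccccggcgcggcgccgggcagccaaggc
Slc16a1: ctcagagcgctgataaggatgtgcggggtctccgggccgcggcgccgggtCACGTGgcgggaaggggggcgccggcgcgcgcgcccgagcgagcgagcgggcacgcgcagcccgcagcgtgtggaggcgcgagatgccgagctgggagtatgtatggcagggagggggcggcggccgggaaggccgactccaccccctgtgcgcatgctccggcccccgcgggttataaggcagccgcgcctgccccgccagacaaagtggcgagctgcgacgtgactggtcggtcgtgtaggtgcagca
Slc38a4: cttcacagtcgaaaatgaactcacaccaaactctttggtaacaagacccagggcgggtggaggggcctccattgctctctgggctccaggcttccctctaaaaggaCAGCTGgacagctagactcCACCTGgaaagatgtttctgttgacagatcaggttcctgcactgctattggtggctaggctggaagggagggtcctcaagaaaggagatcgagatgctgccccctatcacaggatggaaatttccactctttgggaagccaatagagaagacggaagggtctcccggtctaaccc
Slc5a11: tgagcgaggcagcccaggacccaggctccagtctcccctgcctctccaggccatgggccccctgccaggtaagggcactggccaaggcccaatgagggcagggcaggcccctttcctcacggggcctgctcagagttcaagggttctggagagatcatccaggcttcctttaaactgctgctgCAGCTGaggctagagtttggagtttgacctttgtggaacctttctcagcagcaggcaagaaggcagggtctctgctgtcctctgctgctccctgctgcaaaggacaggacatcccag
The window of Slc16a3 held none of the motifs in capitals. That of Slc16a1 held CACGTG, whose first base lies at -200 from the start. Slc38a4 had CAGCTG at -144 and CACCTG at -125, and Slc5a11 had CAGCTG at -67.

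Over all members the motifs were about as frequent as over all 32851 windows of the table, apart from CACGTG. The motif CAGCTG was in 19.2% of the members' windows and 16.3% of all windows, and CAGGTG or CACCTG in 21.6% and 20.2%. CACGTG was in 13.9% of the members' windows against 7.15% of all. Any CANNTG was in 71.2% and 72.3%. Among the members, CAGCTG was in 29.2% of the windows of genes called higher in dKO (14 of 48 windows, from 36 genes). It was in 28.6% of those called lower (12 of 42, from 27 genes) and in 11.9% of those that did not pass (14 of 118, from 92 genes). A gene with several starts gives several windows, so the windows are not independent. CAGGTG or CACCTG was in 12.5%, 31% and 22% of these windows, and CACGTG in 6.25%, 19% and 15.3%. These shares describe letters in a window, with no test, and no binding data were used.

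Control libraries held about 18.2 to 22.6 M reads (M, mega) and those of dKO about 24.3 to 27.0 M, estimated from the library weights. In the authors' deposited table Tcf3 fell from 8931 to 364 normalised counts (adjusted p = 1.2e-292) and Tcf12 from 3845 to 562 (adjusted p = 1.49e-97). Of 9 ETP and pan-leukocyte markers, 4 were called higher and 3 lower, and Cd44 and Thy1 did not pass. Kit was at 14094 in control and 19067 in dKO. The lower ones were Notch1, at 10176 and 1829, Cd34, at 4957 and 1770, and Flt3, at 1080 and 327. Among 4 genes for markers that the gate excludes, 0 were called higher and 1 lower, Cd4, at 104 and 34.8. Il2ra, which encodes CD25, was at 8417 in control and 8536 in dKO, although the gate was CD25-. How this RNA relates to the sorted surface protein was not tested. Of 8 innate lymphoid markers, 8 were called higher, and their summed level was 11424 in control and 63357 in dKO. Of 12 erythroid markers, 4 were at 0 in both groups (Hba-a1, Hba-a2, Hbb-b1 and Hbb-b2), and the summed level was 1445 and 307, most of it Beta-s. Of 11 myeloid markers, 4 were called lower and 0 higher (also at an unadjusted p under 0.05), with sums of 8803 and 2233, most of it Mpo. Mast cell and basophil markers summed to 5975 and 2633, a fall of Cpa3 alone, while Mcpt8 and Ms4a2 were called higher. Endothelial markers summed to 2639 and 2080, nearly all Pecam1, while Kdr, at 0 in control and 16.3 in dKO, was called higher and Cdh5 was at 0 in both groups. The sums were 136 and 46.1 for the B lineage and 281 and 463 for thymic epithelium and stroma. The part of these other cell types in the changes of single carriers was not tested. In bulk RNA, fewer cells of a type and less RNA per cell cannot be told apart.

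The solute carriers changed in both directions in nearly equal numbers. At the authors' adjusted p under 0.05, 43 of the 203 members were called higher in dKO, 36 lower, and 124 did not pass. That is 38.9% called, against 36.2% of the 12896 tested genes with a mean of at least 10 (18.9% higher and 17.2% lower), so the share lies near the background. Over all 16241 tested genes, with no minimum, the share was 29.0%. The median log2 change (dKO over control) of the members was 0.04, against 0.00 over genes of the same minimum. Summed over members, the dKO level was 1.02 times the control level.

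Called carriers were more frequent among abundant ones. Of 155 members with a mean of at least 100, 38 were called higher and 34 lower, which is 46.5%, against 40.4% of all 10302 tested genes at that level (21.2% higher and 19.1% lower). At a mean of at least 1000, 14 of 56 members were called in each direction, which is 50%, against 43.9% of all 5231 tested genes at that level (25.1% higher and 18.8% lower). Called changes of at least 2-fold were found for 21 members in the higher direction and 16 in the lower. For all tested genes with a mean of at least 10 that share was 15.5%, of which 8.50% higher and 6.99% lower. In the plot of both group means, most members lie near the diagonal over a range from about 10 to Slc25a5 at 26774 in control and 26103 in dKO.

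**Figure D1:**
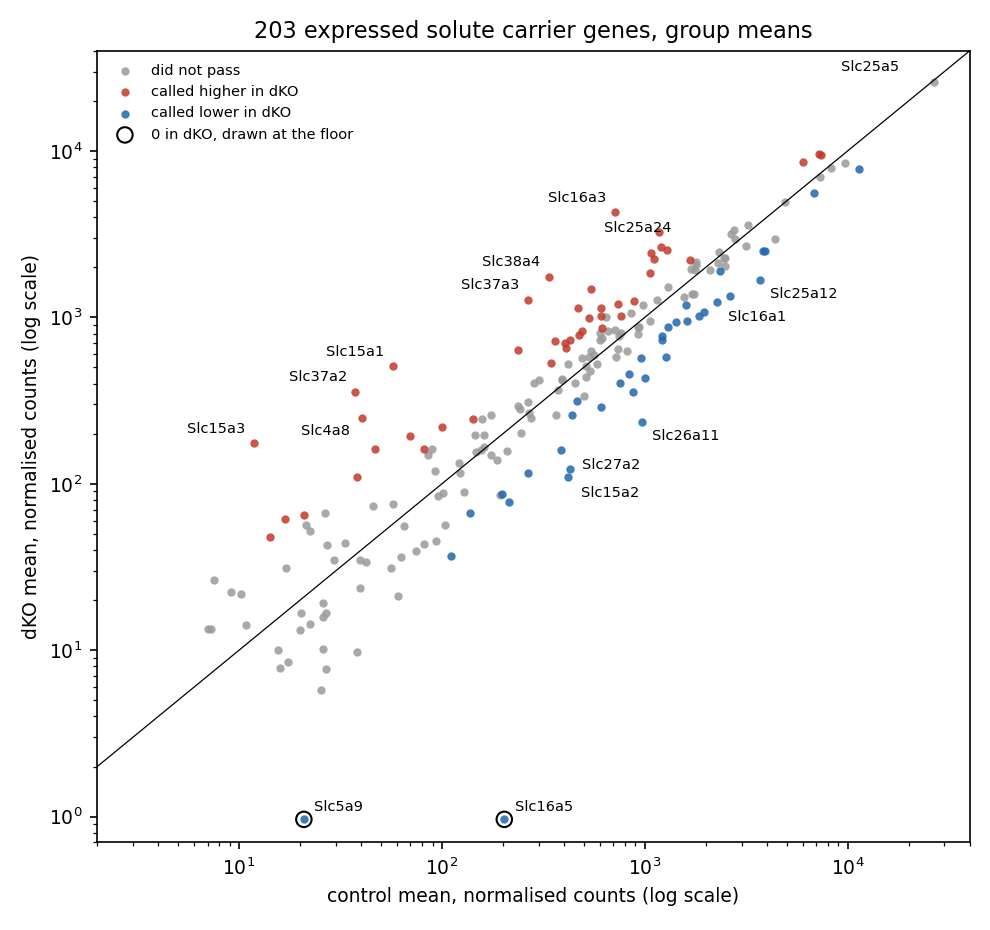
Group mean normalised count of each of the 203 expressed solute carriers, control on the x axis and dKO on the y axis, both logarithmic; colours give the authors' call at adjusted p under 0.05, and the line marks equal means. Slc16a3, Slc38a4, Slc37a3, Slc15a1, Slc37a2 and Slc15a3 lie far above the line, and Slc5a9 and Slc16a5, at 0 in dKO, are drawn at the floor of 0.963.

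The table gives 1 mean per group, but values per library could be recovered where a mean allowed only 1 combination of whole reads. Each mean is the average, over the libraries of a group, of whole reads divided by the library's size factor. The libraries are named here by that factor: 0.823, 0.952 and 1.02 in control and 1.04, 1.08 and 1.16 in dKO. Values per library are listed in that order throughout. They could be had in both groups for 63 members, all of low or moderate level, in dKO alone for 39, and in neither group for 101. For members without them no spread between libraries can be given, and the authors' adjusted p is the only measure of error.

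Of the 63 members with values in all 6 libraries, all dKO libraries lay above all control libraries for 15, of which 11 were called higher. All dKO libraries lay below all control libraries for 9, of which 3 were called lower. The libraries overlapped for 39. Separation without overlap was thus seen for 38.1% of these members, against 41.5% of 3150 genes of the same kind (23.0% with dKO higher and 18.5% with dKO lower). The authors' call was made for 23.2% of those genes. An exact permutation test of 3 against 3 libraries cannot give a 2-sided p under 0.1, so none was made per gene.

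**Figure D2:**
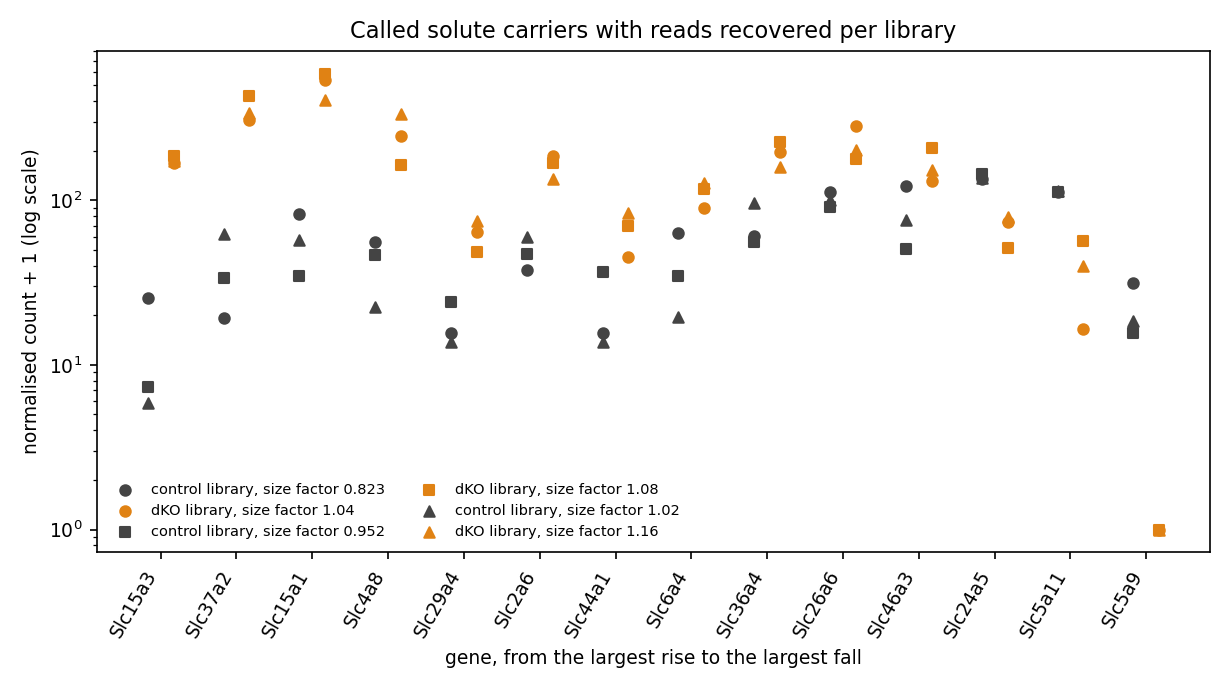
Normalised count plus 1 (logarithmic y axis) in each of 6 libraries for 14 called solute carriers with recovered reads and no overlap between the groups, ordered from the largest rise to the largest fall; dark symbols are control libraries and orange symbols dKO libraries. The dKO symbols lie above the control symbols for 11 genes and below them for Slc24a5, Slc5a11 and Slc5a9.

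The families differed in how many of their members were called. The share was 77.8% for Slc16, 66.7% for carriers of nucleosides, nucleotide sugars and acetyl-CoA, and 63.6% for sugar carriers outside Slc2. It was 28.6% for Slc2 and for Slc1, Slc7 and Slc38 together, 27.0% for Slc25 and 25.0% for Slc30 and Slc39. The families hold between 5 and 37 members, and no test between them was made. The background over all tested genes with a mean of at least 10 was 36.2%.

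**Figure D3:**
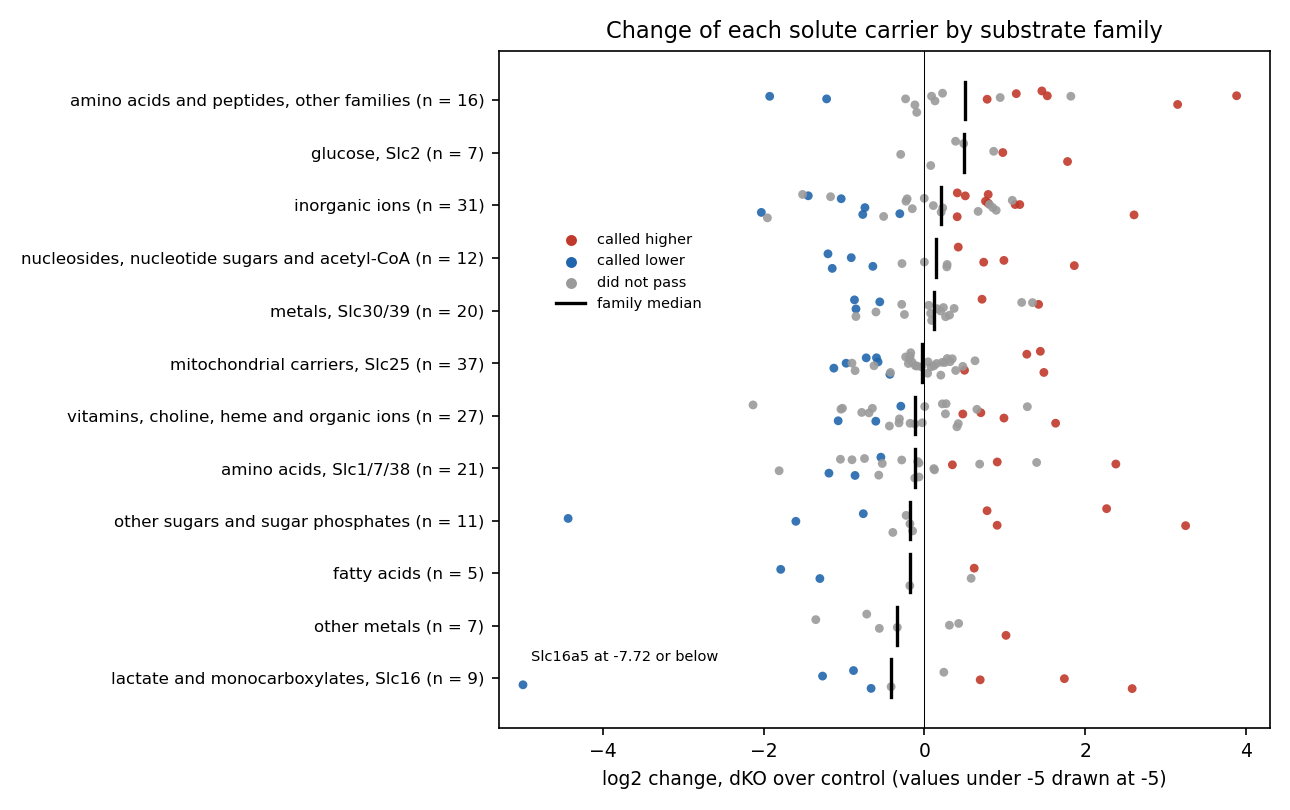
Log2 change of the group mean, dKO over control, for each of the 203 solute carriers (points), arranged by substrate family with the number of members in brackets; black bars are family medians and colours the authors' call. Family medians run from -0.42 for Slc16 to 0.50 for amino acid and peptide carriers outside Slc1, Slc7 and Slc38, and most families hold points on both sides of 0.

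Among the monocarboxylate carriers the leading member changed from Slc16a1 to Slc16a3. Slc16a3 encodes MCT4, known as the exporter of lactate in glycolytic cells, and its mean rose from 712 to 4275 normalised counts, 6.01-fold, with an adjusted p of 4.75e-33 in the authors' deposited table. Slc16a1 encodes MCT1, which carries lactate and pyruvate in both directions, and its mean fell from 2277 to 1234, 1.85-fold, with an adjusted p of 1.4e-10 in the authors' deposited table. Both means are too high for values per library. Per kb of exon, the level of Slc16a3 was 160 in control and 961 in dKO, and that of Slc16a1 514 and 279. The ratio of Slc16a3 to Slc16a1 per kb was 0.311 in control and 3.45 in dKO.

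Of the 9 expressed Slc16 genes, 3 were called higher, 4 lower and 2 did not pass. Slc16a5 had a control mean of 203 and 0 reads in the dKO libraries of size factor 1.04, 1.08 and 1.16. Set against a floor of 3 reads over the dKO group, a mean of 0.963, the level was at least 211-fold lower, and the adjusted p in the authors' deposited table was 2.92e-28. It was 1 of 2 members with no read in dKO, and no member was at 0 in control. Slc16a5 encodes MCT6, a member with fewer known substrates than MCT1.

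Slc16a7 encodes MCT2, a carrier with high affinity for pyruvate. Its mean fell from 387 to 161, 2.41-fold, and its dKO libraries lay close together at 176, 153 and 152. Slc16a10 encodes TAT1, which carries aromatic amino acids, and fell from 1220 to 769. Slc16a6, a carrier of ketone bodies, rose from 407 to 659.

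Slc16a13 was at 210 in control and 158 in dKO, and Slc16a4 at 29.5 and 34.9. Both lay above the threshold, at adjusted p-values of 0.471 and 0.915 in the authors' deposited table.

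Genes for partners of the lactate carriers were called higher in dKO, although MCT1 and MCT2 themselves were called lower. MCT1 and MCT4 reach the cell surface with basigin, and MCT2 with embigin, and lactate is made and used by lactate dehydrogenase. In the authors' deposited table, 4 of 4 such genes were called higher, at adjusted p-values between 4.29e-27 for Emb and 0.0122 for Bsg. Of all tested genes, 18.9% were called higher at a mean of at least 10. At a mean of at least 1000, which all 4 reached, the share was 25.1%. The 4 genes were picked with earlier results of these data known, so their count is a description only. Embigin (Emb) was at 4191 in control and 15671 in dKO, and basigin (Bsg) at 6419 and 7914. The subunit genes Ldha and Ldhb were at 32705 and 54107, and at 1362 and 2327.

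**Figure D4:**
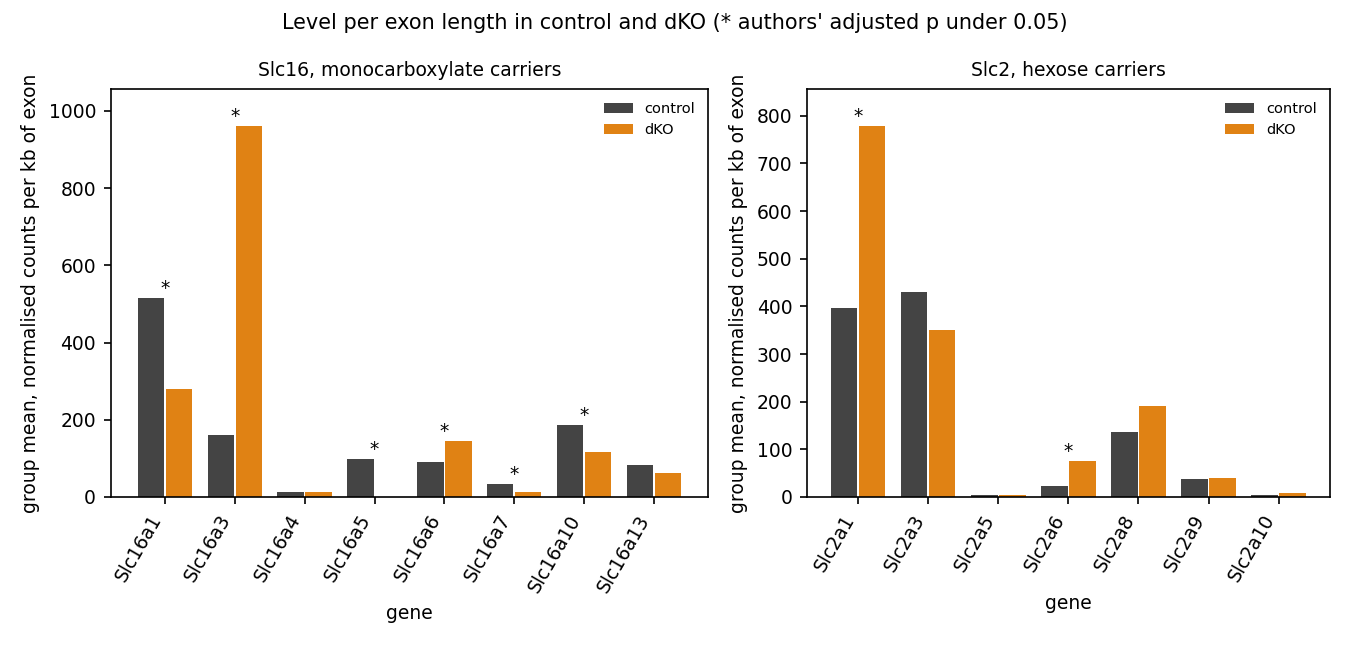
Group mean per kb of exon (y axis, normalised counts per kb) of 8 expressed Slc16 genes and the 7 expressed Slc2 genes in control (dark bars) and dKO (orange bars); asterisks mark members called by the authors at adjusted p under 0.05, and there are no error bars because the table gives group means. Slc16a3 passes Slc16a1 and Slc2a1 passes Slc2a3 between control and dKO.

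Among the 7 glucose carriers of the Slc2 family, 2 were called higher and 0 lower at the authors' adjusted p under 0.05. That is 28.6%, below the background of 36.2% (18.9% higher and 17.2% lower). At an unadjusted p under 0.05 in the deposited table the counts were 3 higher and 1 lower. Slc2a1 encodes GLUT1, the broadly expressed glucose carrier of dividing cells, and rose from 1291 to 2538, 1.97-fold, with an adjusted p of 2.75e-10 in the authors' deposited table. Slc2a6 encodes GLUT6, a carrier of intracellular membranes. Its control libraries held 36.4, 46.2 and 58.6 normalised counts and its dKO libraries 184, 167 and 134. Every dKO library lay above every control library, and the means differed 3.44-fold.

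Slc2a3, which encodes the high-affinity carrier GLUT3, was at 1704 in control and 1388 in dKO and did not pass (adjusted p = 0.0898 in the authors' deposited table). Per kb of exon, Slc2a1 stood at 0.920 times the level of Slc2a3 in control and at 2.22 times in dKO. Slc2a8 (286 and 401) and Slc2a9 (147 and 155) did not pass either. Slc2a9 varied widely within dKO, at 241, 129 and 95.2, and its control libraries at 130, 186 and 125 fell inside that range.

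Downstream of uptake, Pfkp, the platelet form of phosphofructokinase, was at 1466 in control and 5730 in dKO, while the muscle form Pfkm was at 887 and 555. Of 10 genes of glucose handling after uptake, 3 were called higher (Pfkp, Txnip and Hk1) and 2 lower (G6pc3 and Pfkm). Among the 9 with a mean of at least 10, 55.6% were called, against the background of 36.2%. Pfkl, the liver form, was at 5416 and 5931 and did not pass.

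The sugar carriers outside Slc2 changed in both directions, with 4 of 11 members called higher and 3 lower. Slc37a2 and Slc37a3 belong to a family of sugar phosphate exchangers. Slc37a2 held 18.2, 32.6 and 61.5 normalised counts in the control libraries and 304, 430 and 336 in the dKO libraries. The lowest dKO value was far above the highest control value, and the means differed 9.53-fold. Slc37a3 rose from 266 to 1280, 4.82-fold, with an adjusted p of 3.28e-36 in the authors' deposited table. The glucose 6-phosphate carrier of the same family, Slc37a4, was at 821 and 625 and did not pass.

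Slc50a1, the vertebrate SWEET sugar transporter, rose from 532 to 996. In the other direction, Slc5a11, a sodium-coupled carrier of myo-inositol, was even across control at 112, 110 and 112 and lower in each dKO library at 15.4, 55.8 and 38.9. Slc5a9, which encodes the sodium-coupled hexose carrier SGLT4, held 30.4, 14.7 and 17.6 in control and no read in dKO, at least 21.7-fold lower. Slc5a9 passed the abundance minimum through its control level alone. Slc45a4, of a family of proton-linked sugar carriers, fell from 440 to 259.

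Of 21 members of Slc1, Slc7 and Slc38, 3 were called higher, 3 lower and 15 did not pass, and the summed level in dKO was 0.947 times that in control. The uptake carriers Slc1a5 (ASCT2, glutamine and neutral amino acids) at 7270 in control and 6930 in dKO, and Slc38a1 (SNAT1, glutamine) at 8313 and 7844, both lay above the threshold. Slc7a5, the light chain of the leucine carrier LAT1, was at 4381 and 2953, and its heavy chain Slc3a2 at 3154 and 2679. Neither passed, at adjusted p-values of 0.168 and 0.12 in the authors' deposited table. A p above the threshold does not show that these levels were equal.

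Slc38a4 encodes SNAT4, known from liver and placenta, and had the smallest adjusted p of the family, 4e-36 in the authors' deposited table. Its mean rose from 336 to 1755, 5.22-fold. Slc38a2 encodes SNAT2, which is induced by amino acid shortage. It fell from 11373 to 7806, 1.46-fold. Slc38a9, the lysosomal arginine sensor of mTORC1, fell from 834 to 458.

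Slc38a10 rose from 7422 to 9444 and Slc7a8, the light chain LAT2, from 608 to 1139. Slc1a4, the neutral amino acid carrier ASCT1, was at 199 in control and 87.2 in dKO, and its dKO libraries spread from 34.6 to 137. The spread within dKO was nearly as wide as the gap between the means. Among members that did not pass, Slc1a3 showed how a single library can carry a mean: its control libraries held 0, 80.9 and 0 normalised counts, and its dKO libraries 1.93, 17.7 and 3.46. The authors' adjusted p for it was 0.751 in the deposited table.

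Slc38a9 acts with a larger group of genes that report amino acids to mTORC1. Of 15 such genes in the table, 4 were called higher (Sesn3, Sesn2, Lamtor3 and Nprl2) and 2 lower (Sesn1 and Rptor), 40.0% in all against the background of 36.2%. The sestrins, which restrain mTORC1 when amino acids are short, were split: Sesn3 was at 137 in control and 594 in dKO, and Sesn1 at 1987 and 875. Rptor, which encodes the raptor subunit, was at 2389 and 1543.

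Peptide carriers of Slc15 had 2 of the 3 largest folds among members called higher, beside Slc37a2. Slc15a3, a carrier of histidine and bacterial peptides in lysosomal membranes, held 24.3, 6.30 and 4.88 normalised counts in the control libraries and 168, 185 and 172 in the dKO libraries. Its dKO libraries were tightly grouped and far above the control libraries. The means of 11.8 and 175 differed 14.8-fold, and 31.3-fold without the control library of 0.823. Slc15a1 encodes PEPT1, the peptide carrier best known from the small intestine. It held 81.4, 33.6 and 56.6 in control and 534, 586 and 407 in dKO, an 8.89-fold difference of the means.

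Slc15a2, which encodes the related carrier PEPT2, moved the other way, from 420 to 110. Its dKO libraries were far apart at 221, 111 and 0, so the library of size factor 1.16 held no read of it. The fall between the means was 3.80-fold, 2.54-fold without that library and 7.59-fold without the library of 1.04. Its adjusted p in the authors' deposited table was 1.37e-05. Slc15a4 was at 491 and 574 and did not pass. With 2 of 4 Slc15 genes called higher and 1 lower, the family had no common direction.

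The branched-chain amino acid carriers of Slc43 also split. Slc43a2 (LAT4) rose from 1202 to 2655 and Slc43a1 (LAT3) fell from 1001 to 430, with dKO libraries at 489, 323 and 478. Slc36a4, an amino acid carrier of the proton-assisted family, held 59.5, 54.6 and 95.7 in control and 195, 225 and 158 in dKO, without overlap. In all, 6 of the 16 amino acid and peptide carriers outside Slc1, Slc7 and Slc38 were called higher and 2 lower.

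Of 37 expressed mitochondrial carriers, 4 were called higher, 6 lower and 27 did not pass, so that 27.0% were called, and the dKO sum was 0.996 times the control sum. Among those that did not pass were the carriers with the highest and second highest means, Slc25a5 and Slc25a3. Slc25a5, an ADP/ATP exchanger, was at 26774 in control and 26103 in dKO, which per kb of exon was the highest level of the 202 members with a known exon length, in both groups. Slc25a3, the phosphate carrier, was at 9685 and 8499, and Slc25a11, which exchanges 2-oxoglutarate for malate, at 2768 and 3369. The second ADP/ATP exchanger, Slc25a4, rose from 6042 to 8539, 1.41-fold.

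The largest rises in Slc25 were in the calcium-regulated ATP-Mg and phosphate carriers. Slc25a24 rose from 1169 to 3277, 2.80-fold, with an adjusted p of 5.61e-31 in the authors' deposited table, and Slc25a25 from 542 to 1473, 2.72-fold. The third expressed gene of this group, Slc25a23, named for comparison after its values were seen, was at 734 and 649 and did not pass. Slc25a38, the glycine carrier needed for heme synthesis, rose from 471 to 1140.

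The aspartate and glutamate carriers and the citrate carrier fell. Slc25a12 (aralar) fell from 3688 to 1687, 2.19-fold, with an adjusted p of 3.2e-20 in the authors' deposited table, and its isoform Slc25a13 (citrin) fell from 1303 to 873. Both work in the malate-aspartate shuttle, as does Slc25a11. Slc25a1, the citrate exporter that supplies cytosolic acetyl-CoA, fell from 2631 to 1338, 1.97-fold.

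Slc25a37 (mitoferrin, iron import) fell from 1216 to 736, Slc25a39, which imports glutathione, from 3811 to 2519, and Slc25a45 from 1601 to 1188. Mitoferrin is strongly expressed in red cell precursors. The erythroid marker Beta-s, itself a beta-globin gene, was lower in dKO, at 1032 in control and 12.3 in dKO. The 4 other globin genes named above were listed at 0 in both groups, and why they hold no reads beside Beta-s was not tested. Slc25a38, also a red cell gene, was higher in dKO. The part of red cell RNA in these values was not tested. Without 7 members grouped here as iron and heme genes, 41 were called higher and 34 lower. That group counts Slc25a37 and also Slc25a38 and Slc25a39, whose cargoes named above are glycine and glutathione.

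**Figure D5:**
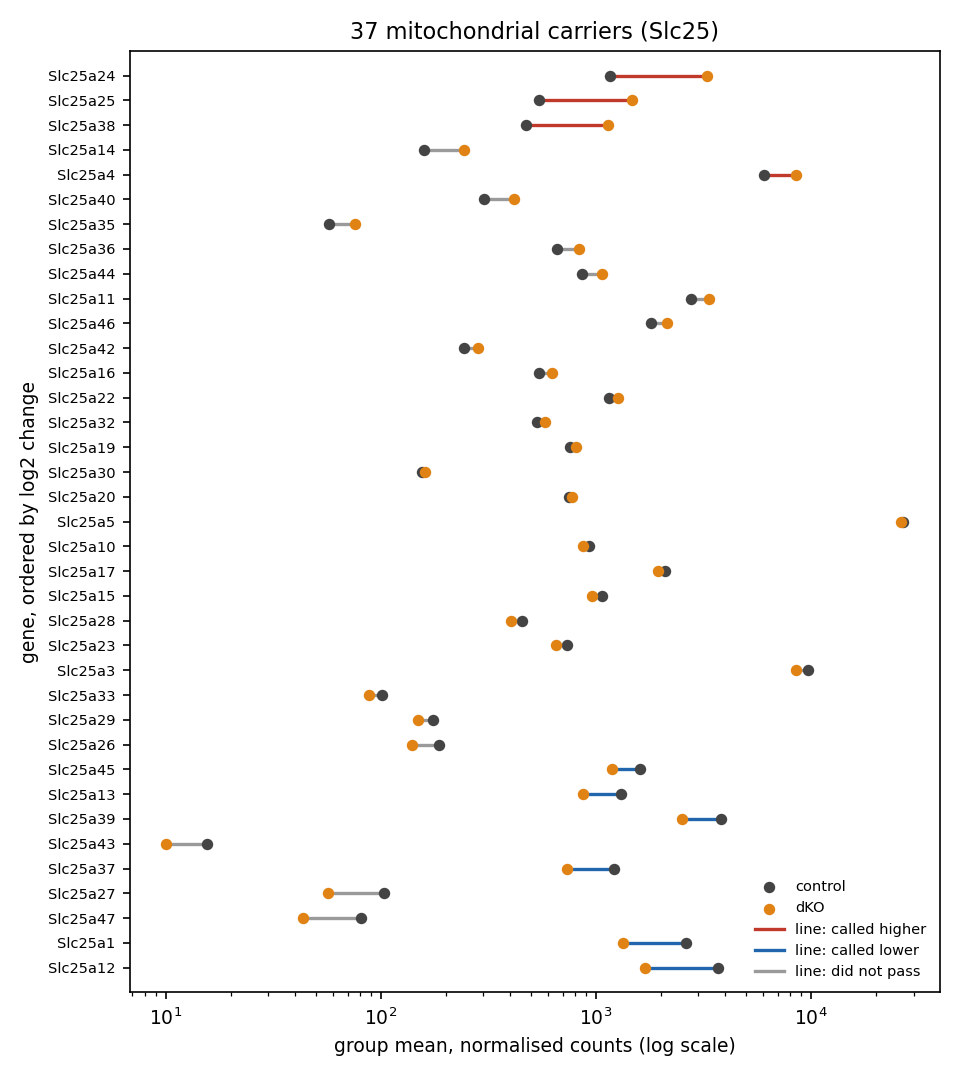
Group means (logarithmic x axis, normalised counts) of the 37 expressed mitochondrial carriers in control (dark) and dKO (orange), ordered by log2 change; red and blue lines mark members called higher and lower by the authors, and grey lines members that did not pass. Slc25a24, Slc25a25 and Slc25a38 have the longest red lines, Slc25a12 and Slc25a1 the longest blue ones, and Slc25a5 the highest level.

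Of 11 genes for the pyruvate carrier, the outer membrane channels and related inner membrane proteins, 0 were called higher and 2 lower, 18.2% in all against 36.2% (1 and 2 at an unadjusted p under 0.05 in the deposited table). The lower ones were Vdac1, the main outer membrane channel, at 10547 in control and 7408 in dKO, and the serine carrier Sfxn1, at 4573 and 3195. Vdac2 was at 6007 and 6176.

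All calls among the expressed zinc carriers were in Slc39. None of the 7 expressed Slc30 genes, which lower cytosolic zinc, was called at adjusted p under 0.05, and at an unadjusted p under 0.05 in the deposited table, 1 was higher and 1 lower. Of the 13 expressed Slc39 genes, which raise cytosolic zinc, 2 were called higher and 3 lower. The Slc39 share of 38.5% lay near the background of 36.2%, and that of Slc30 and Slc39 together, 25.0%, lay below it. The difference between the families was not tested. Slc30a5, with the largest mean of the expressed Slc30 genes, was at 2493 in control and 2049 in dKO, at an adjusted p of 0.0654 in the authors' deposited table.

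Slc39a10 (ZIP10) fell from 1960 to 1071 and Slc39a11 from 1843 to 1020, each about as far as the other on the log2 scale (-0.87 and -0.85). Slc39a8 (ZIP8), which also carries manganese, fell from 465 to 316. Slc39a4 (ZIP4), the main intestinal zinc importer, rose from 238 to 639, 2.68-fold, and Slc39a3 from 476 to 782. Slc39a7 of the secretory pathway (3223 and 3596) and Slc39a6 of the cell surface (2332 and 2481) did not pass.

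Carriers of iron, copper and magnesium (Slc11, Slc31, Slc40 and Slc41) gave 1 call among 7 members. Slc11a2 encodes DMT1, the importer of ferrous iron, and rose from 1114 to 2251, 2.02-fold, with an adjusted p of 6.37e-13 in the authors' deposited table. The copper importer Slc31a1 (CTR1) was at 1740 and 1376 and did not pass. Slc40a1, ferroportin, was uneven between libraries: it was at 0, 48.3 and 29.3 in control and 0, 26.0 and 4.33 in dKO.

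Of 15 genes of metal handling without Slc names, 2 were called higher and 4 lower. Among the 13 with a mean of at least 10, 38.5% were called, against the background of 36.2%. Metallothionein Mt1 was at 231 in control and 37.8 in dKO, the ferritin heavy chain Fth1 at 30369 and 21723, and the iron regulator Aco1 at 1552 and 974. Ceruloplasmin (Cp) was at 13.4 in control and listed at 0 in dKO. The 2 higher genes were heme oxygenase Hmox1, at 62.4 and 164, and Mtf1, the zinc-sensing factor that acts on metallothionein genes, at 435 and 736.

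Carriers of inorganic ions were the largest group after Slc25, and 9 of 31 were called higher and 6 lower. Slc26a11, an anion carrier that moves sulfate, had the largest fall among the members at or above a mean of 100 that still had reads in dKO. It fell from 968 to 237, 4.09-fold, with dKO libraries at 270, 271 and 170. Slc20a2, a phosphate importer, fell from 953 to 570.

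Slc4a8, a sodium-coupled bicarbonate carrier that raises cytosolic pH, held 54.7, 45.2 and 21.5 in control and 245, 163 and 333 in dKO. The groups did not overlap, and the means differed 6.11-fold. The anion exchanger Slc4a2, which works the other way on pH, rose from 1063 to 1843, and the endosomal sodium/proton exchanger Slc9a9 from 1072 to 2440. Slc12a7, a potassium and chloride exporter, was at 1786 and 2063 and did not pass.

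Slc9a3r2, a scaffold of these exchangers and no carrier itself, fell from 213 to 78.1, with dKO libraries at 105, 32.6 and 96.9.

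Called carriers of nucleosides were lower in dKO with 1 exception. Of 4 expressed Slc29 genes, 3 were called lower: Slc29a1 (ENT1) went from 3900 to 2498, Slc29a2 (ENT2) from 266 to 116 and Slc29a3 (ENT3), a lysosomal carrier, from 1280 to 577. The dKO libraries of Slc29a2 lay close together at 123, 100 and 123. The concentrative carrier Slc28a2 fell from 756 to 402. Slc29a4, a carrier of monoamines as well as nucleosides, was the gene called higher, at 14.6, 23.1 and 12.7 in control and 62.6, 47.4 and 73.5 in dKO, without overlap.

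The Slc35a genes encode carriers of nucleotide sugars into the Golgi. Of the 5 expressed ones, 3 were called higher and 0 lower (the same counts at an unadjusted p under 0.05 in the deposited table). The background over all tested genes with a mean of at least 10 was 18.9% higher and 17.2% lower. Slc35a1 (CMP-sialic acid) rose from 609 to 1016, Slc35a5 from 363 to 720 and Slc35a3 (UDP-N-acetylglucosamine) from 765 to 1024. The adjusted p of Slc35a3 in the authors' deposited table was 0.0477, close to the threshold. Slc35a4 was at 4918 in control and 4913 in dKO and did not pass.

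Among the fatty acid carriers, Slc27a1 (FATP1) fell from 876 to 355 and Slc27a2 (FATP2) from 427 to 124, with dKO libraries at 144, 81.8 and 145. Slc27a4 (FATP4) rose from 347 to 533. Slc27a6 was at 174 and 260 and did not pass, at an adjusted p of 0.109 in the authors' deposited table. The 5 expressed Slc27 genes thus held 1 higher and 2 lower calls, and their summed level in dKO was 0.701 times that in control.

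Of 27 carriers of vitamins, choline, heme and organic ions, 20 did not pass, including all 9 expressed Slc22 genes (at an unadjusted p under 0.05 in the deposited table, 1 was higher and 1 lower). The one with the largest mean, the organic cation carrier Slc22a3, was at 2650 in control and 3175 in dKO. Slc22a4, named after its values were seen, was separate between the groups, at 23.1, 15.8 and 37.1 in control and 3.85, 6.51 and 6.92 in dKO, but did not pass (adjusted p = 0.138 in the authors' deposited table).

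The 3 lower calls of this group were the urea carrier Slc14a1, from 609 to 289, the choline carrier relative Slc44a2, from 6851 to 5587, and the reduced folate carrier Slc19a1, from 1424 to 935. The dKO libraries of Slc14a1 lay close together at 306, 286 and 275. Of the 4 higher calls, Slc18a2, the vesicular monoamine carrier, rose from 737 to 1200 and Slc10a7 from 617 to 860. Slc18a2 is also known from mast cells, whose markers moved in both directions: Cpa3 was at 5824 and 2147, and Mcpt8 at 110 and 342. The part of mast cells in the value of Slc18a2 was not tested. Slc46a3, a lysosomal carrier, held 120, 49.4 and 75.2 in control and 130, 206 and 151 in dKO, a separation of the groups by a narrow margin.

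Further members of low level had separate libraries, and the 3 given here were chosen after their values were seen. The serotonin carrier Slc6a4 held 61.9, 33.6 and 18.5 in control and 88.6, 115 and 125 in dKO. Slc44a1, a choline carrier, held 14.6, 35.7 and 12.7 in control and 44.3, 68.8 and 82.2 in dKO, a 3.10-fold difference that was 4.78-fold without the control library of 0.952. Both were called higher. Slc30a1, the zinc exporter of the plasma membrane, was separate at 29.1, 18.9 and 31.2 against 59.7, 84.6 and 57.1 and did not pass, at an adjusted p of 0.0811 in the authors' deposited table.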

How the data were processed

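RNA of 3 control and 3 dKO samples was amplified with the SMARTer Ultra Low Input chemistry and read on an Illumina HiSeq, per the labels' protocols. No label says whether samples came from separate animals, so p-values measure the spread between these samples, which may be technical. Tools named in the submitters' processing notes are TopHat2 2.0.14, bcl2fastq 1.8.4 and DESeq version 2, with build mm9. Which program counted reads is not given in the sources used here, nor is the annotation. Per the file headers, the authors deposited 1 table with the mean normalised count of each group (the signal values used here), their ratio of dKO over control as a fold, and the p-value and adjusted p-value of their DESeq test. Its log2 column was not used, since some cells hold a spreadsheet error.

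The members and lists were chosen with earlier results of these data known. A gene was called at the authors' adjusted p under 0.05. No new test per gene was possible on group means, which the design had allowed for. Log2 changes were computed from the means, where a group without reads took a floor of 3 reads summed over its libraries (in control 1.21 as a mean, in dKO 0.963). Reads amplified without molecular identifiers are not independent molecules, so floors cover counting error only. Levels per kb used the union of exons of each gene in the GENCODE basic annotation of GRCm38, a later build than the files use. Reads per library were recovered with Python 3.11.15, numpy 2.4.6 and pandas 2.3.3 for control means up to 200 and dKO means up to 700. Only unique solutions were kept: 100% of means up to 100, 54.2% of control means and 100% of dKO means between 100 and 200, then 69.8% of dKO means up to 500 and 27.6% up to 700. The recovery was tested on simulated data. The recovered libraries could not be matched to replicate numbers. Figures were drawn with matplotlib 3.10.9.

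Members were named by rule: the 10 largest called folds in each direction at a mean of at least 100, the called members of each family with the smallest adjusted p (up to 6 per direction in the main families, 3 in the others), the largest that did not pass, those at 0, those next to the minimum, and members of a count of 5 or fewer. Slc15a4, Slc40a1, Slc1a3, Slc25a23, Slc22a4, Slc6a4, Slc44a1 and Slc30a1 were chosen after their values were seen. Overlapping and antisense genes cannot be told apart, since no source states strand. Some genes that the rule or the lists take are not reported here.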

Additional observations from a re-analysis of the deposited data

How the results depend on the processing

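With a required 2-fold change, 21 members were called higher and 16 lower, against 43 and 36. Under that rule Slc1, Slc7 and Slc38 held 1 higher and 1 lower, Slc2 held 1 higher, Slc16 held 2 higher and 2 lower, Slc30 and Slc39 held 1 higher and 0 lower, and Slc25 held 3 higher and 1 lower. At an adjusted p under 0.10, Slc25 held 7 higher (main 4) and Slc2 held 1 lower (main 0). The Slc16 median of -0.42 became -0.66 at a mean of at least 100, and -0.087 both with a minimum of 10 in each group and without Slc16a5, the member at 0. The counts of called members stayed within 1.5 times the reported ones under the other 8 settings tried, with 31 to 52 higher and 31 to 39 lower. Scaling both groups to the same total shifted log2 changes by -0.08, and centring on genes with a mean of at least 100 by -0.01. No called member among those named by rule changed direction under the settings tried. Of those that did not pass, Slc2a9 (log2 0.08) fell below 0 with the same total (-0.004) and without the control library of 0.823 or 1.02 or the dKO library of 1.04 (lowest -0.39), and Slc16a4 (0.24) without the control library of 1.02 (-0.005). Of 344 values from settings other than leave-one-out, 2 moved by more than the spread or 1.5-fold. These were Slc16a5 (to -4.41) and Slc5a9 (to -1.63) with a pseudocount of 10, which shrinks low values by construction. Leaving out 1 library moved the fold of some called members by 1.5 times or more, among them Slc15a3, Slc15a2 and Slc44a1.

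Leaving out 1 library, 16 to 20 members had all dKO libraries higher, and 9 to 16 all lower, the 16 without the control library of 1.02. Fewer libraries separate more easily by construction. These counts were made for members alone, so whether all genes shift alike without a library was not tested. The leave-one-out counts, the setting without iron and heme genes and that without members at 0 were added after the data were seen. Means above about 200 in control have no values per library, and the authors' test could not be repeated without a library. No paired analysis was possible because the table gives group means and the recovered libraries carry no replicate numbers.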

Other observations

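Transporters outside the Slc symbols also changed in both directions. Of 33 ATP-binding cassette (ABC) transporters with a mean of at least 10, 5 were called higher and 6 lower by the authors, 33.3% in all, against 36.2% of all tested genes at that level. Abca1, which exports cholesterol, was at 146 in control and 884 in dKO, and Abcb1a, a multidrug exporter, at 42.9 and 168. Abcg2, an exporter known from stem cells, was at 472 and 228, and the mitochondrial transporter Abcb8 at 2028 and 1037.

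Of 15 organic anion carriers named Slco, 4 had a mean of at least 10, and 2 of these were called higher and 1 lower. Slco3a1 was at 734 in control and 3056 in dKO, and Slco4a1 at 1226 and 292. Slco5a1 was at 0.651 in control and 38.7 in dKO. Slco4c1 was also called higher: it had no read in control, and its dKO mean was 19.6.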
